A study of Mus musculus with 12 samples.

Results

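Bone marrow cells labelled as haematopoietic stem cells (HSC) were split by whether they held any transcript of Cd74, and the rest of their transcriptome was compared between the sides. A cell with at least 1 unique molecular identifier (UMI, the tag that marks 1 captured RNA molecule) of Cd74 was counted as with Cd74, and a cell with 0 as without. Of 480 wells on 5 plates, 423 were kept, which asked for 1000 or more detected genes, 3000 or more UMIs and a mitochondrial share below 20%. Of these, 247 cells (58.4%) were with Cd74 and 176 without, out of 1020 kept cells in the series as a whole. The cells were selected on their raw Cd74 count, so the values of Cd74 are a description, and the gene was taken out of every test.

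The cells came from a series built around a mouse line for lineage barcoding, in which expression was read beside lineage, chromatin and DNA methylation. Single cells were sorted into 96-well plates, nuclei were taken away on magnetic beads, and the polyadenylated RNA of the cytoplasm was made into libraries by scSTRT-seq, a tagged reverse transcription method. Both sides therefore share the tissue, the sort, the plate and the protocol, and were told apart by the Cd74 count alone. Bone marrow plates 1 to 3 carry 1 origin code in their titles and plates 4 and 5 another. For plates 4 and 5 the tissue is given by the title only. The labels give no age, treatment, genotype of these cells or surface markers of the sort, and nothing says that a plate is an animal, so p-values measure the spread between plates, which may be technical.

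Cd74 encodes the invariant chain, which assembles with newly made major histocompatibility complex (MHC) class II molecules, keeps their peptide groove filled in the endoplasmic reticulum and steers them to the endosome. There proteases cut it down, and the H2-DM chaperone exchanges the remaining fragment for an antigen peptide. A part of Cd74 reaches the cell surface and acts, with Cd44, as a receptor for the cytokine Mif. Cd74 and the class II chains share a promoter module read by the Rfx complex, NF-Y and the coactivator Ciita. Class II genes are best known from B cells, dendritic cells and macrophages, and their RNA is also found in part of the haematopoietic stem and progenitor cells.

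The class II alpha chain H2-Aa and beta chain H2-Eb1 lead the comparison by p-value, and the 120 bases before their start sites are shown because both hold the core of the Y box, the NF-Y site of class II promoters. The capitals mark CTGATTGG, searched on both strands, which first occurs 51 bases before the start of H2-Aa and 62 bases before that of H2-Eb1. The motif was chosen with these sequences known. It was found in 934 of 32851 promoter windows of that length (2.84%), and a match is a description of the letters, not of a bound site. The sequences are from RefSeq on GRCm38.p6, at chr17:34287824-34287943 on the minus strand for H2-Aa and chr17:34305747-34305866 on the plus strand for H2-Eb1. H2-Ab1, the beta partner of H2-Aa, is named only.
H2-Aa: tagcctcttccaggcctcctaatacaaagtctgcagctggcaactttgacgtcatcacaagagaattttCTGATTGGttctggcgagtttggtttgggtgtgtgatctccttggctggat
H2-Eb1: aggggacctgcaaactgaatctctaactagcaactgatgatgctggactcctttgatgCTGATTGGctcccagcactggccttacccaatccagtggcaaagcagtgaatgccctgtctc

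Most cells with Cd74 held a handful of its molecules, and a smaller set held many. The share of kept cells with Cd74 was 41.1%, 47.9%, 77.5%, 61.7% and 71.2% on plates 1 to 5. Among the 247 cells with Cd74 the median was 3 UMIs and the maximum 219. Just inside the rule, 78 cells had exactly 1 UMI, and 137 had 1 to 3. Between these and the high cells the counts were sparse, with 28 cells at 4 to 9 UMIs. The remaining 82 cells had 10 or more, and they held 3772 of the 4150 Cd74 UMIs (90.9%). These high cells were spread evenly, 17, 16, 16, 14 and 19 on plates 1 to 5. Among the 57 wells below the limits, 9 had a UMI of Cd74, 2 on plate 4 and 7 on plate 5.

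**Figure D1:**
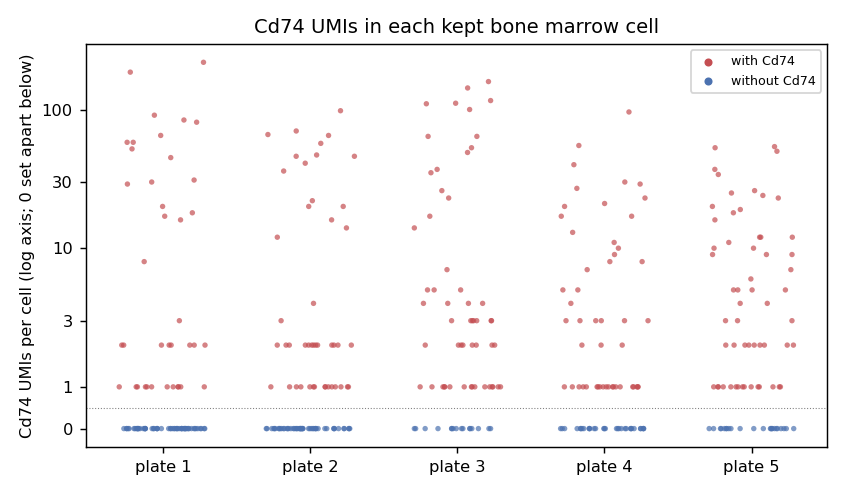
Cd74 UMIs in each of the 423 kept cells by plate, on a log axis with cells at 0 drawn apart below the dotted line; each point is a cell, red with Cd74 and blue without. On every plate most cells sit at 0 to 3 UMIs and a separate scatter of 14 to 19 cells reaches 10 or more, up to 219.

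The split moved with depth, which was allowed for by matching. The 423 cells held 30786386 UMIs, with 2596681 to 9896449 per plate and a median of 59558 per cell. Cells with Cd74 had median totals of 101334, 85001.5, 99747, 29279 and 39049 UMIs on plates 1 to 5, against 90750.5, 61080, 63292, 30487 and 38839 in cells without. When each cell was thinned to 10000 UMIs, the share with Cd74 was 23.7%, 19.8%, 38.0%, 42.3% and 53.8%. Cells with Cd74 were therefore paired within their plate with cells without Cd74 whose log10 totals lay within 0.1. This gave 37, 37, 15, 30 and 22 pairs, 141 in all, from 39, 46, 55, 50 and 57 cells with Cd74. The other cells with Cd74 were left unpaired. On plate 2 the median totals of the paired cells still differed, at 80506 UMIs with Cd74 and 66412 without. The UMIs of the paired cells were summed per plate and side, and CPM below, taken relative to TMM-scaled library sizes, refer to these sums. Of the 141 matched cells with Cd74, 79 had 1 to 3 UMIs of it and 52 had 10 or more. The 96 well barcodes are the same on all plates, as an index of wells.

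Several stem cell genes were detected widely on both sides. Ly6a, which encodes the surface protein Sca-1, had a UMI in 90.3% of cells with Cd74 and 81.8% of cells without. Kit, the stem cell factor receptor, was found in 70.4% and 61.4%, and Hlf, a transcription factor of stem cells, in 70.4% and 62.5%. Slamf1, a surface marker of stem cells, was found in fewer, 12.6% with Cd74 and 9.66% without. Of genes that mark more committed progenitors, Cd48 was found in 6.48% of cells with Cd74 and 10.8% without, and Flt3 in 19.8% and 14.8%. Cd34 was found in 78.1% of cells with Cd74 and 64.8% without, Mecom in 58.7% and 44.9%, and Ptprc in 49.8% and 38.6%. These shares are not corrected for depth.

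The class II chains H2-Aa and H2-Eb1 had the smallest p-values of the comparison, both with more transcripts in cells with Cd74, but no gene passed the adjustment over all genes. By edgeR's quasi-likelihood test, 0 of 7498 tested genes (0.0%) had an adjusted p under 0.05, while 209 (2.79%) had an unadjusted p under 0.05, 103 of them higher (1.37%) and 106 lower (1.41%) with Cd74. DESeq2 called 32 genes and limma-voom 19 on the same sums. H2-Aa and H2-Eb1 ranked first and second by p, and both DESeq2 and limma-voom called them.

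H2-Aa (chromosome 17, 34282744 to 34287823, GRCm38), the alpha chain of the class II molecule I-A, had 129, 261, 207, 218 and 206 CPM in cells with Cd74 on plates 1 to 5, against 21.9, 65.1, 79.6, 17.0 and 62.6 CPM in cells without. Every plate was higher with Cd74, and the sides did not overlap. The means were 204 ± 47.8 CPM with Cd74 and 49.2 ± 28.0 CPM without (SD, n = 5 plates each). The log2 fold change of 2.22 ± 0.41 (± approximates a standard error here and below) had an unadjusted p of 2.89e-05 and an adjusted p of 0.217 in edgeR, against 6.59e-07 in DESeq2 and 0.00784 in limma-voom.

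H2-Eb1 (chromosome 17, 34305867 to 34316674), the beta chain of I-E, had 165, 201, 242, 144 and 93.5 CPM with Cd74, against 17.3, 37.9, 59.5, 48.6 and 44.9 CPM without. Again the lowest plate with Cd74 lay above the highest without. The log2 fold change was 2.07 ± 0.45, with an unadjusted p of 0.000194 and an adjusted p of 0.729 in edgeR, 2.94e-05 in DESeq2 and 0.00312 in limma-voom. Over all tested genes, 23 (0.307%) were higher with Cd74 with no overlap between the sides, and 15 (0.2%) lower.

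H2-Ab1 (chromosome 17, 34257689 to 34269419), the beta chain of I-A, had 112, 229, 131, 159 and 145 CPM with Cd74, against 36.1, 128, 122, 63.2 and 58.5 CPM without. It was higher with Cd74 within every plate, but the sides overlapped. Its log2 fold change of 1.04 ± 0.39 ranked 49th, with an unadjusted p of 0.0143 and an edgeR adjusted p of 1.0. It was not called by DESeq2 (adjusted p = 0.0981) or limma-voom (0.336). Being higher in all 5 plates was shared by 236 tested genes (3.15%).

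**Figure D2:**
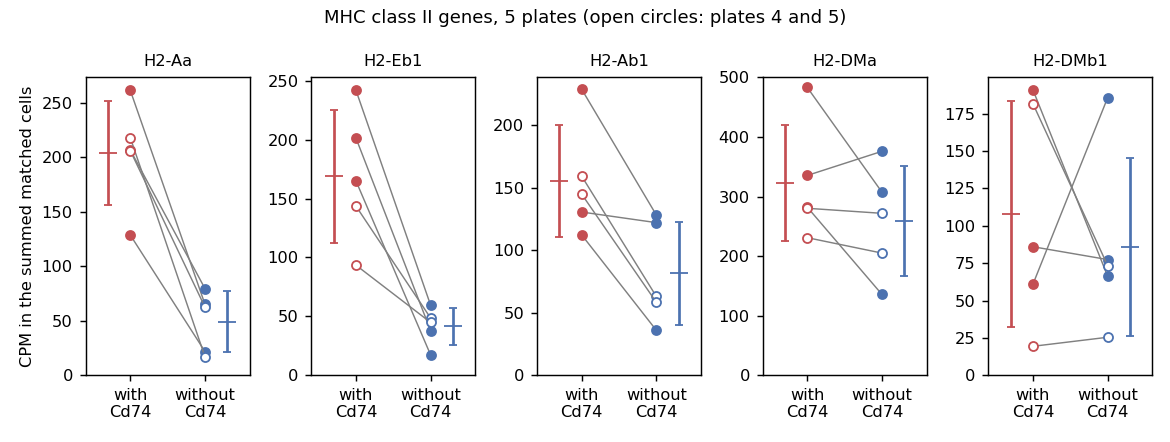
CPM of 5 class II genes in the summed matched cells of each plate, with Cd74 (red, left) and without (blue, right), joined by plate, filled for plates 1 to 3 and open for plates 4 and 5; bars give the mean and SD. H2-Aa and H2-Eb1 do not overlap between the sides, H2-Ab1 is higher in every plate, and H2-DMa and H2-DMb1 overlap.

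Over the matched cells of all plates together, the share with many class II molecules and the share with any were both higher with Cd74. Of the 141 matched cells with Cd74, 26.2% had 10 or more UMIs of H2-Aa, against 7.09% of the 141 without. For H2-Eb1 these shares were 22% and 6.38%, and for H2-Ab1 19.1% and 9.22%. At least 1 UMI was found for H2-Aa in 52.5% and 41.8%, for H2-Eb1 in 56.7% and 29.8%, and for H2-Ab1 in 53.9% and 50.4%. By plate, the share with any H2-Eb1 was lower with Cd74 on plate 3, 46.7% against 66.7%. The shares with any H2-Ab1 were the same on both sides on plates 3, 4 and 5, at 66.7%, 63.3% and 54.5%. The top single cell held 8.81% of the H2-Aa UMIs with Cd74 and 17.0% of those without. These shares over cells are descriptions, since cells of a plate are not replicates. Among all kept cells, 72 of 247 with Cd74 (29.1%) had all 3 chains, against 16 of 176 without (9.09%), and 32 (13.0%) and 48 (27.3%) had none.

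Genes that load and edit class II molecules had values on both sides of 0. Of the 18 genes in the list of class II chains and processing, 12 passed the filter on low counts, 7 higher and 5 lower with Cd74, with a median log2 fold change of 0.21 beside 0.01 over all tested genes. Only the 3 chains above had an unadjusted p under 0.05. H2-DMa, a subunit of the peptide-exchange chaperone, had 282, 483, 336, 231 and 280 CPM with Cd74 and 136, 307, 376, 205 and 272 CPM without. Its log2 fold change was 0.35 ± 0.22, and the sides overlapped. Its partner H2-DMb1 had a log2 fold change of 0.23 ± 0.52. For H2-Oa, which with H2-Ob restrains H2-DM, the log2 fold change was -1.98 ± 1.54, resting on 87 UMIs with Cd74 and 319 without. For H2-Ob it was -0.36 ± 1.75. Among the proteases that trim the invariant chain, Ctss had a log2 fold change of -0.08 ± 0.62 and Ctsl of -0.22 ± 0.47, and for Sppl2a, which cleaves the membrane stub of Cd74, it was 0.20 ± 0.73.

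Regulators of class II transcription were sparse. Rfxank, a subunit of the Rfx complex, averaged 9.48 ± 4.64 CPM with Cd74 and 33.1 ± 21.0 CPM without, lower in 4 of 5 plates, with a log2 fold change of -1.73 ± 1.06. Ciita, the coactivator, fell under the filter, with 26 UMIs in matched cells with Cd74 and 1 without. These came from few cells: among all kept cells it had 21 UMIs in 3 cells at 0 Cd74 UMIs, 31 in 3 cells at 1 to 3, 3 in 2 cells at 4 to 9 and 38 in 3 cells at 10 or more. Rfx5 and Rfxap, the other Rfx subunits, had 33 and 250 UMIs with Cd74 and 18 and 143 without, also under the filter. H2-Eb2, H2-DMb2 and Lgmn had 9, 39 and 4 UMIs with Cd74 and 45, 78 and 21 without.

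Class II levels in cells with 1 to 3 Cd74 UMIs overlapped those in cells with 0, and the highest mean levels were in cells with 10 or more. Over all kept cells, H2-Aa averaged 48.4 ± 23.6 CPM (here and for the splits at other Cd74 counts without TMM scaling) at 0 Cd74 UMIs, 68.2 ± 62.8 at 1 to 3, 112 ± 91.4 at 4 to 9 and 343 ± 31.5 at 10 or more (SD, n = 5 plates). For H2-Eb1 the levels were 42.3 ± 11, 35.4 ± 20.7, 110 ± 118 and 335 ± 134. For H2-Ab1 they were 77.5 ± 38.6, 84.1 ± 21.4, 57.6 ± 68.8 and 291 ± 117. Plates 1 and 2 had only 1 cell each at 4 to 9 UMIs, so that level is poorly measured. For H2-Aa the lowest plate at 10 or more, 307 CPM, lay above the highest plate of every other level, 209. For H2-Eb1 and H2-Ab1 the lowest plates at 10 or more, 158 and 138 CPM, lay below the highest at 4 to 9, 314 and 139. H2-DMa averaged 245 ± 81.4 CPM at 0 and 283 ± 93.7 at 1 to 3.

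**Figure D3:**
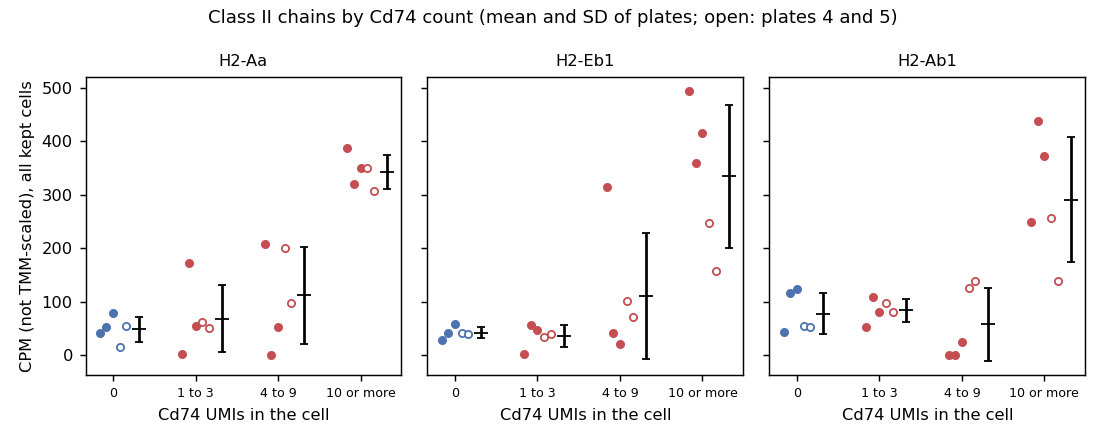
CPM of H2-Aa, H2-Eb1 and H2-Ab1 in all kept cells, by the number of Cd74 UMIs in the cell; each point is a plate (open for plates 4 and 5) and black bars give the mean and SD of the 5 plates. The levels at 0 and at 1 to 3 UMIs overlap, and all 3 chains are highest on average at 10 or more.

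Splitting at 10 UMIs, a limit set after these counts were seen, gave calls for class II chains. In 75 pairs of cells with 10 or more and with 0 Cd74 UMIs, edgeR called 2 of 6224 genes (0.0321%), both higher. H2-Eb1 rose to 495, 359, 347, 317 and 176 CPM with 10 or more, against 24.1, 37.7, 70.0, 17.8 and 44.9 with 0, a log2 fold change of 3.21 ± 0.50 (adjusted p = 0.00172). H2-Aa rose to 388, 320, 278, 455 and 341 CPM, against 2.68, 115, 93.4, 10.2 and 61.7 with 0, a log2 fold change of 3.28 ± 0.63 (adjusted p = 0.0307). Both chains were higher in every plate, with no overlap between the sides. With each plate left out in turn H2-Eb1 was called every time (log2 fold change 2.90 to 3.54), while H2-Aa was not called without plate 4 (2.73, adjusted p = 0.232) or without plate 5 (3.63, 0.154). H2-Ab1 was not called there, with a log2 fold change of 1.78 ± 0.45 (edgeR adjusted p = 0.426).

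Cells with 1 to 3 UMIs set against cells with 0, in 107 pairs, gave 0 calls among 7084 genes (0.0%), and 208 genes (2.94%) had an unadjusted p under 0.05 in edgeR. H2-Aa had 1.54, 182, 67.9, 40.9 and 63.5 CPM with 1 to 3, against 38.2, 71.9, 82.5, 15.8 and 56.0 with 0. The sides overlapped widely. The log2 fold changes were -0.06 ± 0.82 for H2-Aa, -0.07 ± 1.0 for H2-Eb1 and 0.08 ± 0.59 for H2-Ab1. With errors of this size a difference of either sign could be present. The difference between these fold changes and those at 10 or more was not tested.

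Cells with 10 or more set against all cells with fewer, in 81 pairs, gave 3 calls among 6713 genes (0.0447%). H2-Eb1 rose by a log2 fold change of 2.77 ± 0.48 (edgeR adjusted p = 0.0315) and H2-Ab1 by 2.19 ± 0.40 (0.0399). Ifitm1, an interferon-inducible membrane protein, had 2480, 2310, 2050, 4320 and 3350 CPM with 10 or more, against 2020, 1670, 1440, 3390 and 2810 with fewer. It was higher in every plate, and it rose by a log2 fold change of 0.40 ± 0.06 (edgeR adjusted p = 0.0155). H2-Aa was not called in that split (2.61 ± 0.60, edgeR adjusted p = 0.375). The calls depended on which plates were used: 0 genes were called without plate 1, 3 or 4, Ifitm1 alone without plate 2, and the same 3 genes without plate 5. Over these fits the log2 fold change stayed between 2.35 and 3.25 for H2-Eb1, 2.06 and 2.43 for H2-Ab1 and 0.36 and 0.44 for Ifitm1. With 10 or more against 0, Ifitm1 was not called (0.26 ± 0.08), and plate 5 was lower, 3390 against 3760 CPM. With any against no Cd74 in matched cells, it was 0.045 ± 0.064 in edgeR and 0.169 ± 0.031 in limma-voom (limma-voom adjusted p = 0.00239). In all kept cells without matching, Ifitm1 was at -0.23 ± 0.07 in edgeR.

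Beyond class II, 2 of 3 tested partners of Cd74 were higher and 1 lower, none with an unadjusted p under 0.05. Mif, its ligand, averaged 1348 CPM with Cd74 and 1390.3 CPM without, a log2 fold change of -0.05 ± 0.10. Ddt, a homologue of Mif that also binds Cd74, had a log2 fold change of 0.51 ± 0.31. Cd44, the signalling partner, averaged 69.4 ± 21.8 CPM with Cd74 and 61.2 ± 25.9 CPM without, a log2 fold change of 0.24 ± 0.60.

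Antigen presentation by MHC class I and the interferon response had list medians close to that of all genes. Of 22 tested class I genes, 12 were higher and 10 lower with Cd74, with a median log2 fold change of 0.02. Psmb10, a subunit of the immunoproteasome, had 328, 317, 436, 300 and 313 CPM with Cd74, against 304, 188, 250, 220 and 292 CPM without, a log2 fold change of 0.44 ± 0.21 (unadjusted p = 0.0451 in edgeR). It was higher in each plate, and the sides overlapped. B2m, the light chain of class I molecules, had a log2 fold change of 0.00 ± 0.03. Of 39 interferon response genes, 23 were higher and 16 lower, with a median of 0.07. Ly6a, which also stands in the stem cell list, had 497, 673, 423, 462 and 508 CPM with Cd74, against 453, 405, 382, 300 and 438 CPM without, a log2 fold change of 0.37 ± 0.16 (unadjusted p = 0.0278 in edgeR). Irf7, a master regulator of type I interferon, averaged 35.3 ± 7.98 CPM with Cd74 and 13.9 ± 12 CPM without. Ifi47, an interferon-induced GTPase, averaged 106 ± 35.9 and 160 ± 53.5 CPM in the opposite direction.

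Stem cell genes had 17 of 28 tested members higher with Cd74 and 11 lower, with a median log2 fold change of 0.10. Mllt3, a regulator of stem cell maintenance, had 146, 258, 135, 255 and 221 CPM with Cd74, against 87.7, 110, 100, 123 and 189 CPM without, a log2 fold change of 0.74 ± 0.30 (unadjusted p = 0.0245 in edgeR). Meis1, a homeobox cofactor of stem cells, averaged 178 ± 60.8 CPM with Cd74 and 120 ± 55.5 CPM without, a log2 fold change of 0.69 ± 0.32 (unadjusted p = 0.0445 in edgeR). Both were higher with Cd74 in each of the 5 plates, and neither passed the adjustment.

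Lineage priming lists held no called member. Of 12 megakaryocyte and platelet genes, 8 were higher (median 0.17), and Gp9, a subunit of the von Willebrand factor receptor, had a log2 fold change of 1.09 ± 0.65. Of 14 lymphoid genes 6 were higher (median -0.03), of 9 myeloid genes 5 (median 0.00), and of 7 erythroid genes 3 (median -0.42). Plac8, a gene of early myeloid and lymphoid progenitors, had a log2 fold change of -0.41 ± 0.23, and Spi1, the myeloid and B cell regulator PU.1, of -0.24 ± 0.24. Car2, carbonic anhydrase of red cell precursors, had 0.20 ± 0.09 (unadjusted p = 0.0345 in edgeR).

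In the matched sums, genes of the cell cycle were lower with Cd74 more often than higher. Over all 7498 tested genes, 3816 were higher and 3682 lower. Of 32 S phase genes 13 were higher and 19 lower (median -0.18), and of 26 G2 and M genes 10 were higher and 16 lower (median -0.31). Hmgb2, a chromatin protein abundant in dividing cells, had 587, 458, 421, 601 and 421 CPM with Cd74, against 619, 534, 609, 990 and 684 CPM without. It was lower in every plate, with a log2 fold change of -0.45 ± 0.13 (unadjusted p = 0.00346 in edgeR). In all kept cells, without matching on depth, its log2 fold change was 0.13 ± 0.12. For Hmgb2 it was -0.02 when matched on detected genes, -0.03 in thinned cells and 0.23 with the side read after thinning. Cdca7, an S phase gene, had a log2 fold change of 0.80 ± 0.33 and Ung, a DNA repair glycosylase, of -2.13 ± 0.94.

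Immediate early genes were evenly split, with 6 of 12 higher. Myc, the growth regulator in that list, had 183, 139, 72, 120 and 108 CPM with Cd74, against 186, 201, 272, 323 and 207 CPM without. The highest plate with Cd74 lay just below the lowest without. Its log2 fold change was -0.95 ± 0.31 (unadjusted p = 0.00676, rank 22, edgeR). Of 8 mitochondrial genes 1 was higher (median -0.27). The 79 cytosolic ribosomal protein genes had a median of 0.01, with values between -0.07 and 0.17.

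**Figure D4:**
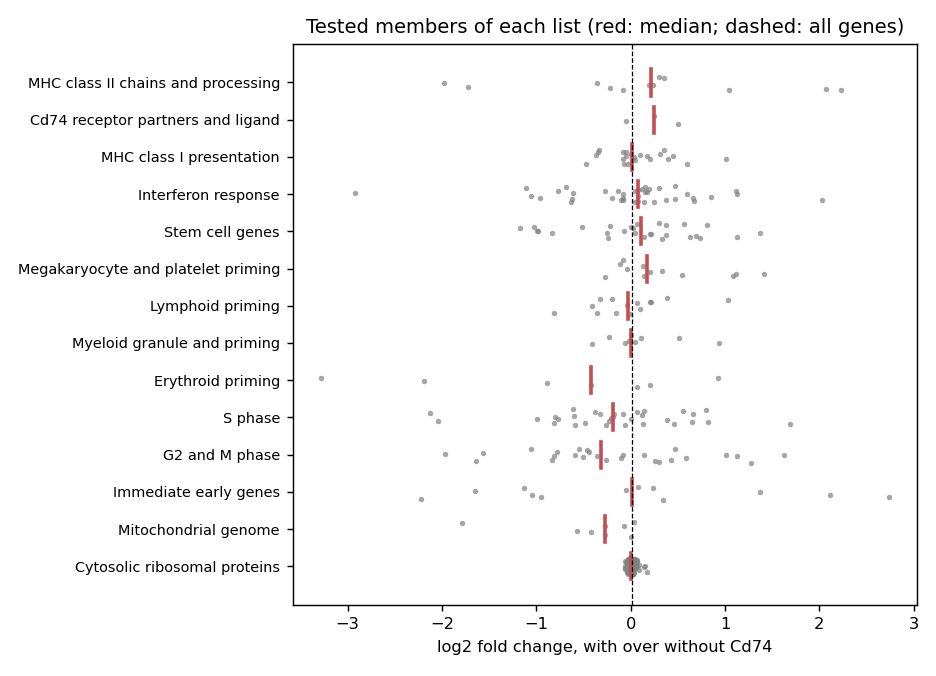
log2 fold change, cells with over cells without Cd74, of each tested member of 14 gene lists; each grey point is a gene, the red line the list median and the dashed line the median of all tested genes (0.01). The class II row reaches 2.22 for H2-Aa and 2.07 for H2-Eb1 but also holds members below 0, and ribosomal protein genes lie between -0.07 and 0.17.

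The values of ribosomal protein genes differed with the allowance for depth. In all kept cells with no allowance, edgeR called 42 of 9257 genes (0.454%), 2 higher and 40 lower, and 34 of the 40 were cytosolic ribosomal protein genes. Their median there was -0.22 beside 0.14 over all genes, against 0.01 for both in the cells matched on UMIs. With the other allowances they were called 0 times but stayed lower with Cd74 in most cases: 76 of 79 when cells were thinned (median -0.15 beside 0.04), 74 with depth as a covariate (-0.12 beside 0.10) and 73 when matched on detected genes (-0.05 beside -0.01). In the cells matched on UMIs, limma-voom called 6 of them, 4 higher and 2 lower. In all kept cells with no allowance, the 2 higher genes included H2-Aa, at a log2 fold change of 1.75 ± 0.39 (edgeR adjusted p = 0.0458).

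Outside the lists, the genes of smallest p with Cd74 higher in every plate had functions of no single kind. None passed the adjustment in edgeR, while Mettl7a1 was called by DESeq2 (adjusted p = 0.0295) and limma-voom (0.0138), and Secisbp2 by DESeq2 (0.00467). Mettl7a1 had 319, 233, 206, 187 and 176 CPM with Cd74, against 130, 63.2, 169, 86.2 and 105 CPM without, with no overlap. Its log2 fold change was 1.07 ± 0.31 (unadjusted p = 0.00292, edgeR). Ndufc1, a subunit of respiratory complex I, averaged 508 ± 138 CPM with Cd74 and 316 ± 81.4 CPM without, a log2 fold change of 0.68 ± 0.19. Nsa2, a factor of ribosome assembly, averaged 421 ± 108 and 262 ± 91.4 CPM (0.71 ± 0.21). Hnrnpc, an RNA-binding protein of splicing, and Dnajc2, a ribosome-associated cochaperone, had log2 fold changes of 0.59 ± 0.18 and 0.69 ± 0.22. Secisbp2, needed for selenoprotein synthesis, had 74.3, 20.1, 251, 6.08 and 69.1 CPM with Cd74, against 53.8, 4.74, 4.82, 0 and 1.36 CPM without, a log2 fold change of 3.43 ± 1.01 with plate 3 far above the rest.

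In all, 206 tested genes (2.75%) were lower with Cd74 in every plate. Among those of smallest p, the kinase gene Taok1 had 2.38, 13.6, 3.13, 7.30 and 6.77 CPM with Cd74, against 54.7, 86.4, 44.2, 61.9 and 91.1 CPM without. The sides did not overlap, and the log2 fold change was -3.54 ± 0.83 (unadjusted p = 0.000417, adjusted p = 1.0 in edgeR). A UMI of Taok1 was found in few cells, 6.67% to 18.9% of matched cells per plate with Cd74 and 9.09% to 26.7% without. Its shares were equal on plate 2 and higher with Cd74 on plate 5, so its CPM rest on few cells. Gmfg, an actin regulator of blood cells, had 559, 514, 513, 511 and 503 CPM with Cd74, against 639, 772, 652, 797 and 791 CPM without. Its sides did not overlap either, with a log2 fold change of -0.48 ± 0.12 (unadjusted p = 0.000921, edgeR). The actin-severing protein gene Cfl1 had a log2 fold change of -0.22 ± 0.07 and Nop10, a subunit of the box H/ACA particle, of -0.29 ± 0.09. Vldlr, a lipoprotein receptor, averaged 33.6 ± 29.1 CPM with Cd74 and 99.0 ± 53.1 CPM without. On the same sums DESeq2 called Taok1 (adjusted p = 1.1e-05), Gmfg (0.0189), Vldlr, Trip4 and Msh5, and limma-voom called Nop10 (0.00784). Trip4 averaged 6.53 ± 7.51 and 43.0 ± 13.2 CPM, and Msh5, a meiotic mismatch repair gene, 1.13 ± 1.58 and 23.8 ± 9.66 CPM. A UMI of Msh5 was found in 0% to 10.8% of matched cells per plate with Cd74 and 2.70% to 13.5% without. For Trip4 these shares were 4.55% to 20% and 8.11% to 20%, so the CPM of both rest on few cells. The share with any Trip4 was equal on plates 3 and 4 and higher with Cd74 on plate 2. For Vldlr it was equal on plates 2 and 5 and higher with Cd74 on plate 1.

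**Figure D5:**
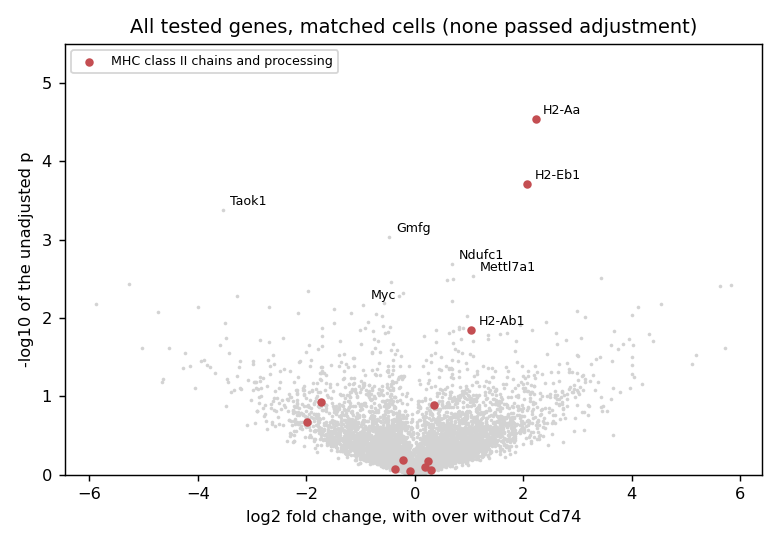
log2 fold change (cells with over cells without Cd74) against -log10 of the unadjusted edgeR p for the 7498 tested genes, with the 12 tested class II genes in red. H2-Aa and H2-Eb1 have the smallest p-values, H2-Ab1 ranks 49th, and no gene passed the adjustment.

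Across single cells H2-Eb1 and H2-Aa had the ranks most like those of Cd74. The Cd74 counts used here also define the split, so the likeness is no separate support for it. Spearman's rank correlation with Cd74, both per 10000 UMIs of the cell, was averaged over the 5 plates for 4516 genes found in at least 20% of kept cells. As a description over 423 cells that share plates and depth, H2-Eb1 and H2-Aa both came to 0.312, beside a median of 0.03 over all these genes. Nsa2 followed at 0.239, Mettl7a1 and Stx6 at 0.199, Psap, the precursor of lysosomal saposins, at 0.186, Samhd1 at 0.185, H2-DMa at 0.184, Luc7l at 0.182 and Ndufc1 at 0.181. H2-Ab1 was not among the 10 genes most like Cd74. The value of H2-Eb1 ranged between 0.107 on plate 3 and 0.443 on plate 4.

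Whole-cell measures were compared in matched cells thinned to 10000 UMIs. With 5 plates the smallest p of the exact two-sided sign-flip permutation test is 0.0625, so none of the 6 measures could reach 0.05. Cells with Cd74 had 1646.9 ± 102 genes detected and cells without 1541.9 ± 79.4 (SD, n = 5), higher in 4 of 5 plates (exact permutation p = 0.125, adjusted 0.375). The percent of mitochondrial UMIs was 0.151 ± 0.052 and 0.153 ± 0.0491 (exact permutation p = 0.688). Detected genes of S, G2 and M phase numbered 8.7 ± 1.48 and 8.6 ± 1.14 (exact permutation p = 1.0).

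Procr, which marks long-term stem cells, had a UMI in 34.2 ± 19.7% of matched thinned cells with Cd74 and 24.6 ± 16.9% of those without, higher in 4 of 5 plates (exact permutation p = 0.125, adjusted 0.375). Itga2b, a gene of megakaryocyte-biased cells, was found in 10.7 ± 4.67% and 14.7 ± 8.88% (exact permutation p = 0.375), and Mki67, a gene of dividing cells, in 4.11 ± 3.39% and 2.31 ± 3.57% (exact permutation p = 0.75). In all kept cells at full depth, Mki67 was found in 17.8% with Cd74 and 9.09% without, Procr in 51.4% and 42.6% and Itga2b in 28.3% and 26.1%.

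Several defining markers of the mature cells best known for class II were at 0. Of 14 B cell markers, 8 had a UMI in the matched cells, with summed levels of 14.1 to 75.9 CPM with Cd74 (median 53.6) and 3.21 to 101 CPM without (median 39.5). Cd79b made up most of it, at 44.2 ± 23.4 and 41.3 ± 33.7 CPM, while Cd79a and Ms4a1 were at 0 on both sides. Of 17 dendritic cell and macrophage markers, 11 had a UMI, summing to 20.7 to 155 CPM with Cd74 (median 28.5) and 3.64 to 63.2 CPM without (median 28.1), and Cd209a, Siglech and Clec9a were at 0. Cd68, a lysosomal protein gene of macrophages, made up most of that level at 42.8 ± 44.7 CPM with Cd74 and 24.7 ± 13.3 CPM without. On plate 2 it reached 121 CPM with Cd74, against 35.9 CPM without. At least 3 B cell markers occurred in 0 cells of either side, and at least 3 dendritic or macrophage markers in 2 cells with Cd74 and 0 without.

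Endothelial and neutrophil genes were higher with Cd74 in 4 of 5 plates each, by summed level. At least 3 of 12 endothelial markers, several of which stem cells also express, occurred in 23.4% of matched cells with Cd74 and 14.2% without, with 10.8%, 27.0%, 66.7%, 16.7% and 18.2% on plates 1 to 5 with Cd74, against 5.41%, 21.6%, 20%, 3.33% and 27.3% without, so plate 5 went the other way. Their summed level was 360 to 675 CPM with Cd74 (median 530) and 196 to 665 CPM without (median 444), and 5 and 7 of the 12 were at 0. Egfl7, which stem cells also express, made up most of it at 310 ± 89.8 and 255 ± 108 CPM, while the endothelial cadherin gene Cdh5 and the transcription factor gene Sox17 were at 0 on both sides. Of 11 neutrophil markers 6 had a UMI, summing to 0 to 188 CPM with Cd74 (median 153) and 0 to 90.8 CPM without (median 32.4). S100a8, a gene of neutrophils, had 83.2, 98.3, 133, 0 and 35.2 CPM with Cd74, against 0.438, 56.8, 90.8, 0 and 0 CPM without. Erythroblast markers summed to a median of 201 CPM with Cd74 and 314 CPM without, T and NK cell markers to 89.4 and 99.9 CPM, and stromal markers to 1.43 and 7.23 CPM. At least 3 markers of any such list occurred in 87 cells with Cd74 and 38 without. Of these, 75 and 21 held at least 3 endothelial markers. Without these cells, the log2 fold changes were 2.14 ± 0.70 for H2-Aa, 0.86 ± 0.97 for H2-Ab1 and 1.19 ± 1.07 for H2-Eb1. The errors of H2-Ab1 and H2-Eb1 were close in size to their fold changes.

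Within both origin codes the class II chains were higher in cells with Cd74. On plates 1 to 3 alone the log2 fold changes were 2.0 ± 0.50 for H2-Aa, 2.58 ± 0.54 for H2-Eb1 and 0.88 ± 0.50 for H2-Ab1. On plates 4 and 5 alone they were 2.64 ± 0.68, 1.31 ± 0.83 and 1.32 ± 0.69. In either set of plates edgeR called 0 genes. The test of the difference between the codes called 0 of 7498 genes (0.0%), with 219 (2.92%) at an unadjusted p under 0.05 in edgeR. For H2-Eb1 that difference, plates 1 to 3 minus plates 4 and 5, was 1.25 ± 0.88 on the log2 scale, and for H2-Aa it was -0.67 ± 0.84.

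Set beside fetal liver, the bone marrow cells carried Cd74 and class II RNA in more cells. Cd74 was found in 247 of 423 bone marrow cells (58.4%, 41.1% to 77.5% per plate) and in 112 of 454 kept fetal liver cells (24.7%, 23.2% to 26.0%). Of these, 82 bone marrow and 17 fetal liver cells had 10 or more UMIs. Bone marrow cells together held 3561 UMIs of H2-Aa, 3745 of H2-Ab1 and 3120 of H2-Eb1, against 19, 33 and 16 in fetal liver. At least 1 of the 3 chains was found in 215 of 247 bone marrow cells with Cd74 (87.0%, exact 95% interval 82.2% to 91.0%) and 128 of 176 without (72.7%, 65.5% to 79.2%). In fetal liver it was found in 7 of 112 cells with Cd74 (6.25%, 2.55% to 12.5%) and 23 of 342 without (6.73%, 4.31% to 9.92%). The intervals cover counting error only, and the difference between the tissues was not tested. The tables of the aorta-gonad-mesonephros region do not list Cd74, so the split was not made there, and in its 143 cells H2-Aa was found in 1, H2-Ab1 in 2 and H2-Eb1 in 3.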

How the data were processed

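The authors deposited counts of UMIs per gene symbol and well, 1 table per plate, with no normalization. The submitters' processing notes name the mm10 build with SAMtools, featureCounts and UMI-tools. Their versions, the annotation and the strand rule are not given in the sources used, and reads of overlapping, antisense or near-identical genes cannot be told apart. No doublet caller was run on singly sorted cells.

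The members and gene lists were chosen with earlier results of these data known. Cells were paired 1 to 1 within the plate on log10 UMIs without Cd74 (limit 0.1, smallest total distance), and counts were summed, giving 10 sums. These were tested in edgeR 4.0.16 (R 4.3.3) with the quasi-likelihood test, TMM scaling, filterByExpr, a term for plate and Benjamini-Hochberg adjustment over all tested genes at 0.05. Residual degrees of freedom were 4, the prior 15.1 and the common biological coefficient of variation 0.774. Both sides of a pair come from the same plate, so the plate is the replicate block. Errors of fold changes approximate standard errors, as the log2 value over the root of F. CPM use TMM-scaled library sizes except where stated. Alternatives used DESeq2 1.42.0, limma-voom (limma 3.58.1), other matching, filters and Cd74 limits. The script was tested on simulated counts.

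Genes named are the 8 of smallest p in each direction with a mean of at least 20 CPM on the higher side and the same direction in every plate, every tested class II gene, up to 3 members of each list by p, and the 10 genes most like Cd74; others, including Ifitm1, B2m and genes at 0, were named after their values were seen. Whole-cell measures used an exact permutation test over plates. Gene positions are from GENCODE on GRCm38.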

Additional observations from a re-analysis of the deposited data

Results flagged for a closer look

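In 6 of 79 sets of 5 plate differences, 1 plate stood far from the others, where chance flags about 1 in 20. The differences are log2(CPM + 1), with minus without Cd74, in matched cells. Sppl2a was 5.19 on plate 3, against -1.36 to 0.47 on the others. Itgb3 was 3.63 on plate 3, against 0.00 to 0.99. Ltb was 2.06 on plate 3, against -0.16 to 0.26. Meis1 was 1.54 on plate 3, against 0.40 to 0.53, so it was higher with Cd74 on the other plates too. Plac8 was -1.66 on plate 5, against -0.34 to 0.19. Cfl1 was -0.06 on plate 1, against -0.28 to -0.23. Plate 3 had 15 pairs of cells, the fewest of the 5 plates. Outside the kept cells, 9 wells below the limits held a UMI of Cd74.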

How the results depend on the processing

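The number of genes called, 0 in the matched sums, was 32 with DESeq2, 19 with limma-voom, 1 without the filter on low counts, 42 in all kept cells without matching, 1 with the side read after thinning, and 4 with 1 sum per origin code and side. It was 2 for 10 or more Cd74 UMIs against 0 and 3 for 10 or more against under 10, both chosen after seeing the data; with 1 plate left out these gave 1 to 3 and 0 to 3. Leaving out each plate in turn gave 0 to 0 calls, and without the replicate block 0 genes were called. The 10% mitochondrial limit removed no cell. The difference between origin codes gave 0 to 2 calls with 1 plate left out, 2 without plate 4 (Rbm27 and Tax1bp1). H2-Aa stayed between 1.75 and 3.13 on the log2 scale over 22 alternatives (edgeR, DESeq2 and limma-voom adjusted p 6.59e-07 to 1.0) and between 1.91 and 2.44 without 1 plate. H2-Eb1 stayed between 1.19 and 2.69 (2.94e-05 to 1.0). Both had values just below 0 for 1 to 3 UMIs against 0. Over 71 named genes, 1576 of 1704 alternative values kept their direction. With 1 plate left out, the difference in mitochondrial percent lay between -0.00956 and 0.0022, in cell cycle genes detected between -0.25 and 0.375, and in cells with Mki67 between -0.0287 and 3.6 percentage points. For Itga2b it was 0.348 percentage points when thinned to 20000 UMIs, against -4.0 at 10000; the cause was not tested. A Cd74 count of 0 in a cell does not show that the gene is silent, since thinning to 10000 UMIs lowered the share with Cd74 on every plate.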
